A study of Saccharomyces cerevisiae with 2 samples.

Results

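The genes described here encode 10 amino acid permeases that bring amino acids into budding yeast growing in rich medium: AGP1, GNP1, BAP2, BAP3, TAT1, TAT2, DIP5, CAN1, LYP1 and HIP1. Members were taken by gene name from the count tables, which list 6603 open reading frames (ORFs), and all 10 were found. Transcripts of Saccharomyces cerevisiae were sequenced in 2 libraries, 1 from strain CY3003 with the tra1-L3733A allele and 1 from strain CY2706 with wild-type TRA1. Both strains were grown at 30 °C to an A600 of 2.0 in YP medium with 2% glucose, and each RNA was read as 35-nucleotide reads on 1 Illumina Genome Analyzer II lane. The sources used here do not give how the allele was introduced, which other markers the strains carry, or whether a library came from more than 1 culture. With 1 library per strain, no difference below has a replicate check, no p-value is given, and each value compares these libraries and not the genotypes.

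Tra1 is a very large subunit shared by the histone acetyltransferase complexes SAGA and NuA4, through which activators recruit those complexes to genes. Rich medium supplies amino acids and peptides, and yeast cells there use permeases of the yeast amino acid transporter family, which differ in the amino acids they carry. The plasma membrane sensor Ssy1 acts with Ptr3 and the protease Ssy5 (together called SPS) and, when amino acids are present outside the cell, leads to cleavage of the activators Stp1 and Stp2, which then enter the nucleus. AGP1, GNP1, BAP2, BAP3, TAT1, TAT2, DIP5 and the peptide transporter gene PTR2 are known targets of this pathway. BAP2 is also known as a target of Leu3, the activator of leucine synthesis genes.

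Each of the 10 genes is a single-exon gene in the R64 reference. The stretches from 600 to 301 bases before the start codon are printed for AGP1 with GNP1 and for BAP2 with BAP3, since these are the closest relatives among the 10 proteins, at 65.0% and 72.1% identity, and since AGP1 and GNP1 lay on opposite sides of 1 in the comparison of the libraries. Sequences and coordinates are those of R64, written 5′ to 3′ on the strand of the gene. Capitals mark CGGC, or GCCG where it lies on the other strand, the letters found in the element that Stp1 and Stp2 bind, and in BAP2 also the Leu3 element, which is CCGG followed, after any 2 bases, by CCGG.
AGP1 (chrIII:78220-78519, minus strand): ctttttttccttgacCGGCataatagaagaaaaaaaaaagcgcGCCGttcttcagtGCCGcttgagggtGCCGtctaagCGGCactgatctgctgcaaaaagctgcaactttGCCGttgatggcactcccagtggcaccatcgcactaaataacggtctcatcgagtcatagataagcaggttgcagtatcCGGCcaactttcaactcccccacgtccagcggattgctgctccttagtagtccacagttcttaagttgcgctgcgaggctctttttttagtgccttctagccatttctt
GNP1 (chrIV:1468745-1469044, minus strand): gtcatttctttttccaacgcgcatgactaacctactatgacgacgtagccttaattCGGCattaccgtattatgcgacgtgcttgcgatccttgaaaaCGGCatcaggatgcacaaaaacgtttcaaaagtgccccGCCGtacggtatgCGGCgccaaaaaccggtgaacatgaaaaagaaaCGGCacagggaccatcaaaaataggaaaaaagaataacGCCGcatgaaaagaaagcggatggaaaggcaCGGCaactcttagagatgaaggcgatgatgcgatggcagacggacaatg
BAP2 (chrII:375991-376290, minus strand): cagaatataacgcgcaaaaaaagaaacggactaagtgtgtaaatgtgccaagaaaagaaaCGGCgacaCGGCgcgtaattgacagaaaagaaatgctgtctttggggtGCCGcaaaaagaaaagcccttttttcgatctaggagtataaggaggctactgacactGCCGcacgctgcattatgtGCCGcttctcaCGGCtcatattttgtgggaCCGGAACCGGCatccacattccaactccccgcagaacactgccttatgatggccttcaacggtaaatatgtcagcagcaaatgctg
BAP3 (chrIV:550877-551176, minus strand): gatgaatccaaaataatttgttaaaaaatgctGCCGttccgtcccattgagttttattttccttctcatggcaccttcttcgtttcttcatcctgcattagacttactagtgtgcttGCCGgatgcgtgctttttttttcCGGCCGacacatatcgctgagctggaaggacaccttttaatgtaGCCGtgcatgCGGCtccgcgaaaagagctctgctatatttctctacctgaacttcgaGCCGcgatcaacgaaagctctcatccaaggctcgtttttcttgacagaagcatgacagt

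AGP1, GNP1, BAP2, BAP3 and TAT1 held the most copies of these letters, and the SPS targets DIP5 and TAT2 held fewer. Within 600 bases before the start codon, on either strand and with overlapping matches counted singly, CGGC occurred 9 times for AGP1, 8 times for BAP2 and TAT1, 7 times for GNP1 and BAP3, 5 times for DIP5, 4 times for LYP1, 3 times for TAT2 and 1 time for CAN1 and HIP1. At least 1 match was found for 75.3% of all 6005 promoters of that length, and at least 7 matches for 1.35% of them against 5 of the 10 permease genes. The number 7 was chosen after the counts were seen. The Leu3 element stood at positions -386 to -377 relative to the start codon of BAP2, as CCGGAACCGG, and shares its last 3 bases with 1 CGGC match. No other permease gene had this element in that window, and 0.333% of all promoters had it. The element GATAAG, known for GATA factors of nitrogen regulation, was found for AGP1 and CAN1 and for 26.8% of all promoters. The Gcn4 element TGACTC was found for AGP1, BAP2, CAN1 and HIP1 and for 15.3% of all promoters. In the shorter window from 250 bases before to 50 after the start, CGGC was found for 3 permease genes and 47.9% of all promoters, GATAAG for 0 and 14.7%, TGACTC for 2 and 7.97%, and the Leu3 element for 0 and 0.133%. A match gives the presence of these letters only, and windows may reach into a neighbouring gene.

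**Figure D1:**
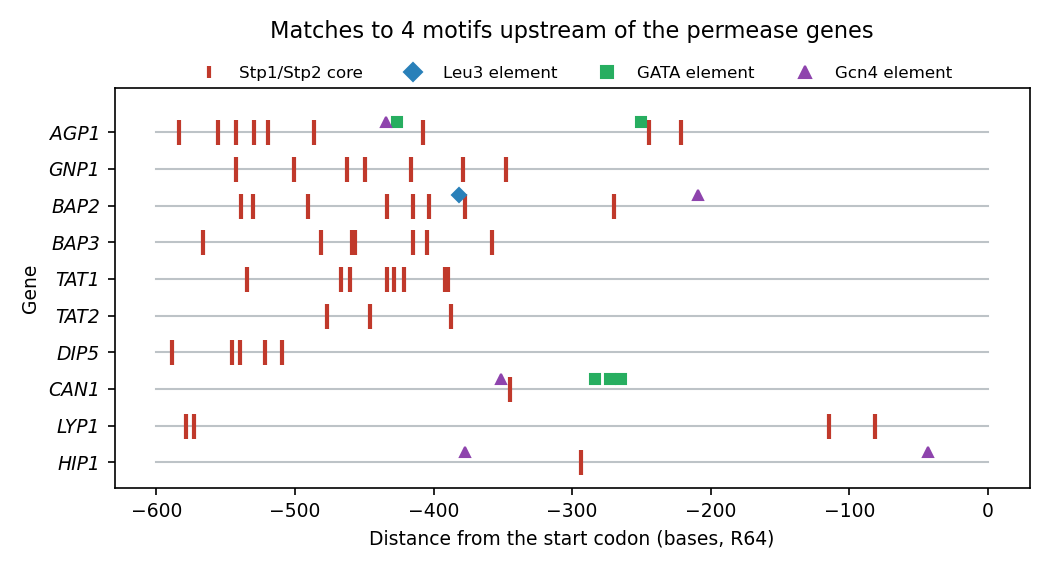
Positions of matches to 4 motifs in the 600 bases before the start codon of each permease gene, with distance in bases (R64) on the x axis and 1 row per gene. Red bars are CGGC on either strand, the blue diamond is the Leu3 element, green squares are GATAAG and purple triangles are TGACTC; the red bars are densest for AGP1, GNP1, BAP2, BAP3 and TAT1, with 7 to 9 each.

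The 10 permease transcripts differed little between the libraries, and they did not move together. Ratios of tra1-L3733A to TRA1 ran from 0.757 for BAP2 to 1.29 for AGP1, after library sizes were scaled with edgeR's TMM factors (trimmed mean of M-values). An ORF was called higher or lower when its reads over both libraries came to at least 20, its ratio was 1.5 or more, or the inverse of that or less, and its 95% exact counting interval left out 1. By this rule 0 of the 10 were higher and 0 were lower. Of the 6248 ORFs with enough reads, 2.80% were called higher and 5.46% lower, so that a set of 10 with no call is near the background. With a smaller threshold, a log2 ratio at least 0.32 from 0, AGP1 was called higher, against 10.7% of all tested ORFs, and BAP2 and GNP1 were called lower, against 14.4%. These shares too were near the background. The median log2 ratio of the 10 genes was -0.14 and that of all tested ORFs was -0.00, while their log2 ratios had an SD of 0.25 for the 10 genes and 0.35 for all tested ORFs. Over the 2986 ORFs with at least 1000 reads in all, as each permease gene has, that SD was 0.30.

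**Figure D2:**
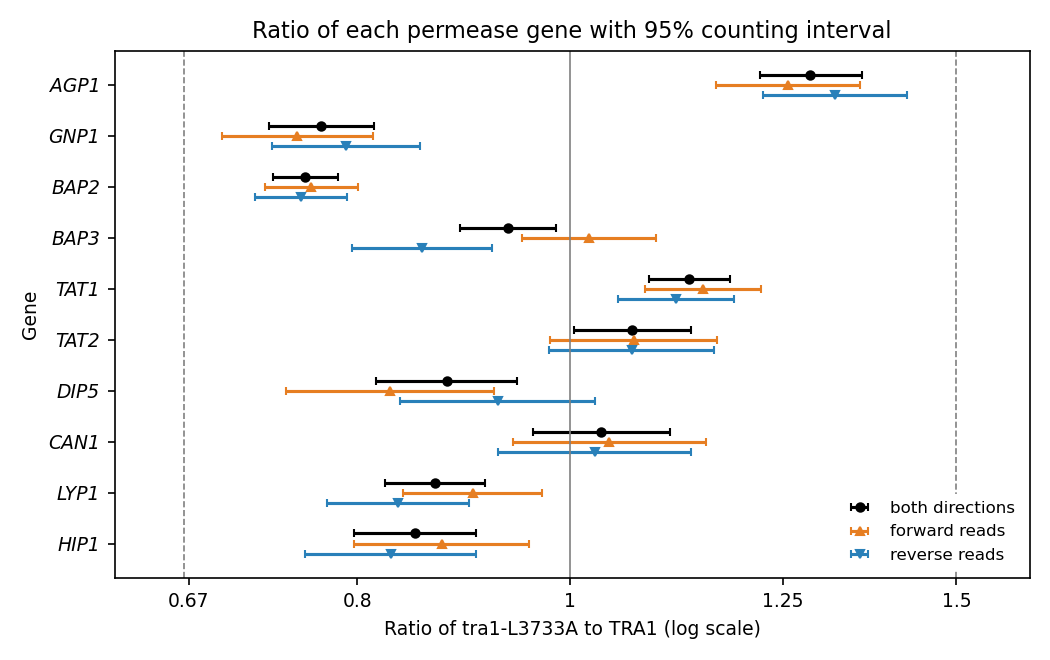
Ratio of tra1-L3733A to TRA1 for each permease gene on a log axis, with 95% exact counting intervals, from both read directions (black), forward reads (orange) and reverse reads (blue). Dashed lines mark a ratio of 1.5 either way; no gene reaches them, and the forward and reverse intervals of BAP3 are apart.

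**Figure D3:**
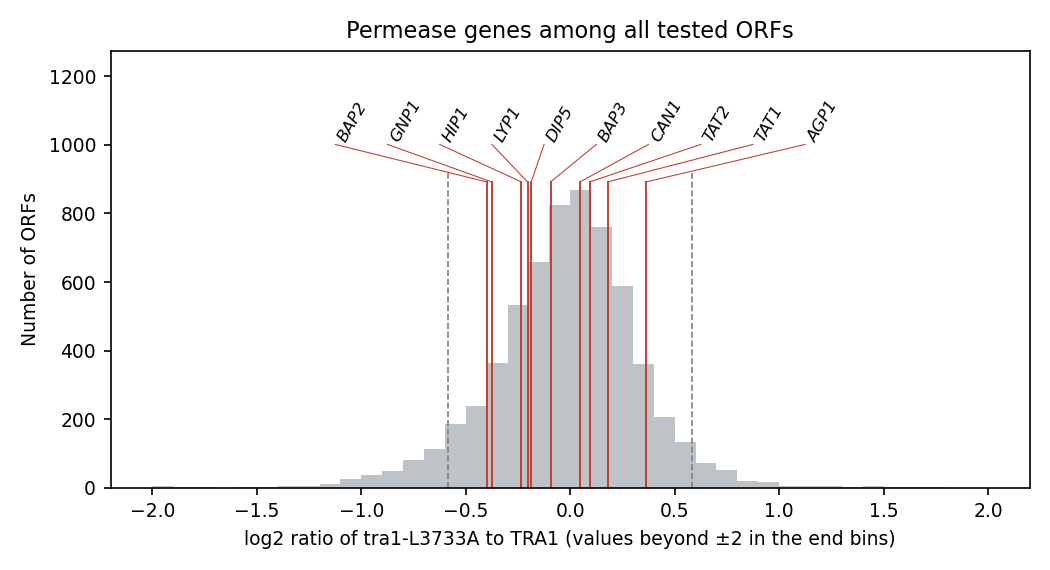
Histogram of the log2 ratio of tra1-L3733A to TRA1 over 6248 tested ORFs, in grey, with the 10 permease genes as red lines. Dashed lines mark a ratio of 1.5 either way; all 10 genes lie between them, from -0.40 for BAP2 to 0.36 for AGP1.

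The libraries held 9970836 counts for tra1-L3733A and 11564964 for TRA1. Intervals cover counting error only, since PCR copies of a molecule cannot be told from separate molecules here, and the spread between cultures is not in them. The targeted gene TRA1 itself had 5102 reads in the tra1-L3733A library and 12035 in the TRA1 library, a ratio of 0.526 (0.509 to 0.544). TRA1 was thus called lower by the size rule, and 1.92% of tested ORFs lay farther from 1. The source of this difference was not tested. A substitution need not alter the level of its mRNA, so the TRA1 ratio does not check the labels. Scaling by total counts moved the median log2 ratio of all tested ORFs by -0.10, and scaling by lane reads moved it by -0.09. Under these scalings 2 and 3 permease genes lay above 1, against 4 with TMM, and over all tested ORFs the calls were 91 higher with 515 lower, and 98 higher with 500 lower, against 175 with 341.

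AGP1 and GNP1 encode broad-specificity permeases, Agp1 for many neutral amino acids at low affinity and Gnp1 for glutamine and several other amino acids. AGP1 (YCL025C, chromosome III, 76018 to 77919, coordinates of the count tables here and below) had 2777 reads in the tra1-L3733A library and 2678 in the TRA1 library, or 288 against 224 CPM (counts per 1e6 of the scaled library size). Its ratio was 1.29 (1.22 to 1.36), at percentile 89.8 of all tested ORFs, and 24.3% of tested ORFs lay farther from 1 in either direction. GNP1 (YDR508C, chromosome IV, 1466446 to 1468437) had 2057 reads in the tra1-L3733A library and 3315 in the TRA1 library, or 213 against 277 CPM. Its ratio was 0.770 (0.729 to 0.814), at percentile 13.2, and 22.6% of tested ORFs lay farther from 1. The close relatives thus stood on opposite sides of 1, each by less than the size rule.

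BAP2 and BAP3 encode permeases for the branched-chain amino acids leucine, isoleucine and valine. BAP2 (YBR068C, chromosome II, 373858 to 375687) was the gene farthest below 1, with 5277 reads in the tra1-L3733A library and 8648 in the TRA1 library, or 548 against 723 CPM. Its ratio was 0.757 (0.732 to 0.784), at percentile 12.2, and 20.6% of tested ORFs lay farther from 1. BAP3 (YDR046C, chromosome IV, 548761 to 550575) had 2676 reads in the tra1-L3733A library and 3545 in the TRA1 library, or 278 against 296 CPM. Its ratio was 0.937 (0.891 to 0.986) on both read directions, but 1.02 (0.951 to 1.09) on forward reads and 0.856 (0.795 to 0.921) on reverse reads. The directions thus gave BAP3 ratios on either side of 1 with intervals that do not overlap. The counting intervals do not cover this gap, and its source was not tested. BAP3 was the 1 permease gene with such a gap, which 2.50% of all tested ORFs had.

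TAT1 and TAT2 encode permeases for tyrosine and tryptophan, with Tat2 known as the high-affinity tryptophan permease. TAT1 (YBR069C, chromosome II, 376571 to 378430) had 4042 reads in the tra1-L3733A library and 4427 in the TRA1 library, or 419 against 370 CPM. Its ratio was 1.13 (1.09 to 1.18), and 54.0% of tested ORFs lay farther from 1. TAT2 (YOL020W, chromosome XV, 286173 to 287951) had 1932 reads in the tra1-L3733A library and 2247 in the TRA1 library, or 200.5 against 188 CPM, a ratio of 1.07 (1.004 to 1.135) that became 0.997 with scaling by total counts. TAT1 lies next to BAP2 on the same strand, 883 bases away, and these neighbours stood on opposite sides of 1.

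DIP5 encodes the permease for the acidic amino acids glutamate and aspartate. DIP5 (YPL265W, chromosome XVI, 41043 to 42869) had 1218 reads in the tra1-L3733A library and 1721 in the TRA1 library, or 126 against 144 CPM. Its ratio was 0.879 (0.816 to 0.946), and 52.8% of tested ORFs lay farther from 1. DIP5 had the fewest reads of the 10 genes in all, 2939 over both libraries.

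CAN1, LYP1 and HIP1 encode the permeases for the basic amino acids arginine, lysine and histidine. CAN1 (YEL063C, chromosome V, 31694 to 33466) had 1411 reads in the tra1-L3733A library and 1695 in the TRA1 library, or 146 against 142 CPM. Its ratio of 1.03 (0.962 to 1.11) was the only one of the 10 whose interval held 1, and it became 0.965 with scaling by total counts and 0.971 with scaling by lane reads. LYP1 (YNL268W, chromosome XIV, 138551 to 140386) had 2442 reads in the tra1-L3733A library and 3493 in the TRA1 library, or 253 against 292 CPM. Its ratio was 0.868 (0.824 to 0.914), with 49.5% of tested ORFs farther from 1. HIP1 (YGR191W, chromosome VII, 880425 to 882236) had 1611 reads in the tra1-L3733A library and 2353 in the TRA1 library, or 167 against 197 CPM. Its ratio was 0.850 (0.797 to 0.906), with 43.5% of tested ORFs farther from 1. LYP1 and HIP1 thus stood below 1 and CAN1 near it.

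Levels between genes were compared per length, as CPM per kb of ORF span. BAP2 had the highest level in both libraries, 299 CPM per kb in the tra1-L3733A library and 395 in the TRA1 library, and TAT1 came next with 226 and 199. Among all 6603 ORFs BAP2 ranked 511 in the tra1-L3733A library and 396 in the TRA1 library by this level. DIP5 had the lowest level of the 10, 69.2 CPM per kb in the tra1-L3733A library and 78.8 in the TRA1 library, at rank 1831 and 1645. BAP3 came after TAT1 in both libraries, with 153 and 163 CPM per kb. In the tra1-L3733A library AGP1 with 152, LYP1 with 138, TAT2 with 113, GNP1 with 107, HIP1 with 92.3 and CAN1 with 82.6 CPM per kb followed. In the TRA1 library the order was LYP1 with 159, GNP1 with 139, AGP1 with 118, HIP1 with 109, TAT2 with 106 and CAN1 with 79.9 CPM per kb. AGP1 thus stood above GNP1 in the tra1-L3733A library and below it in the TRA1 library. Neighbours in the order whose counting intervals overlapped were BAP3 with AGP1 and TAT2 with GNP1 in the tra1-L3733A library, and BAP3 with LYP1, HIP1 with TAT2 and CAN1 with DIP5 in the TRA1 library.

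**Figure D4:**
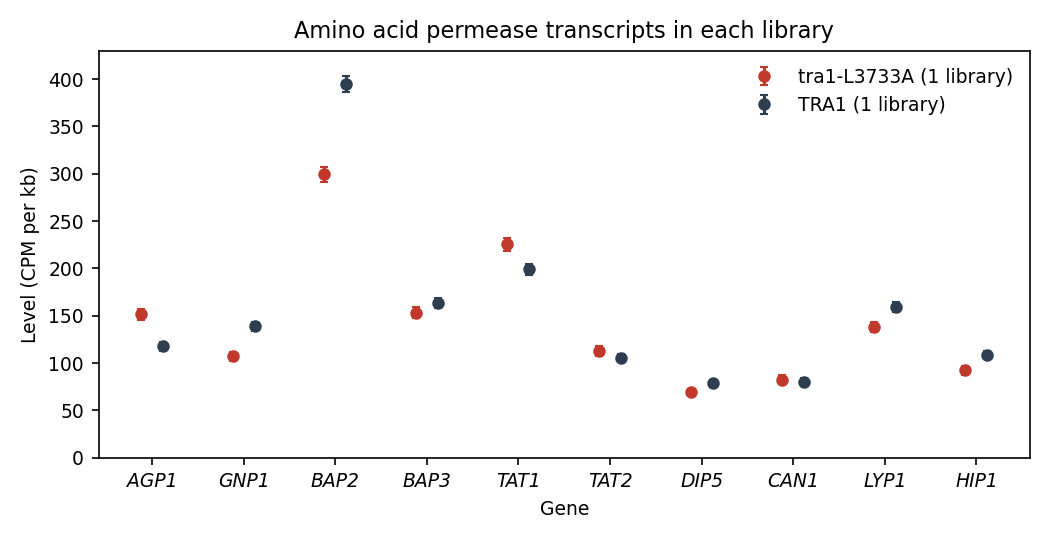
Level of each permease transcript in CPM per kb of ORF span, in the tra1-L3733A library (red, left) and the TRA1 library (dark blue, right), with 95% exact Poisson intervals for counting error. BAP2 is highest in both libraries at 299 and 395 CPM per kb, and AGP1 and GNP1 swap their order between the libraries.

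Quotients of 2 permease genes within a library do not depend on the scaling to library size. AGP1 was at 1.41 times the level of GNP1 per kb in the tra1-L3733A library and at 0.846 times in the TRA1 library, a change of 1.67-fold (1.55 to 1.80). This change was 1.67 on forward reads and 1.67 on reverse reads, which come from the same libraries and are not replicates. TAT1 was at 0.754 times the level of its neighbour BAP2 in the tra1-L3733A library and at 0.504 times in the TRA1 library, a change of 1.496-fold (1.42 to 1.58). BAP2 was at 1.96 times the level of BAP3 in the tra1-L3733A library and at 2.42 times in the TRA1 library, a change of 0.808 (0.760 to 0.859), which was 0.747 on forward reads and 0.881 on reverse reads. CAN1, whose protein shares 61.6% identity with Lyp1, was at 0.598 times the level of LYP1 in the tra1-L3733A library and at 0.503 times in the TRA1 library, a change of 1.19 (1.09 to 1.30). For TAT1 over TAT2 the quotients were 2.00 and 1.88, a change of 1.06 (0.985 to 1.15) whose interval holds 1. These 5 quotients were chosen with the single ratios known, and no background over other pairs of genes was computed.

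Together the 10 genes held 0.255% of the tra1-L3733A counts (0.252 to 0.258%, exact binomial) and 0.295% of the TRA1 counts (0.292 to 0.298%). Their summed reads, 25443 and 34122, had a ratio of 0.926 (0.911 to 0.941) with TMM, 0.865 with scaling by total counts and 0.870 by lane reads. BAP2 alone gave 20.7% of the permease reads in the tra1-L3733A library and 25.3% in the TRA1 library. Without BAP2 the ratio of the sum was 0.983 (0.965 to 1.001), and leaving out any other single gene gave 0.895 to 0.942. The sum below 1 with TMM therefore rests mostly on BAP2.

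Few 35-base stretches of these ORFs match another place in R64 exactly, and GNP1 and HIP1 overlap another listed ORF. Matches with mismatches were not examined. Of the 35-base stretches of each ORF in R64, the length of the reads, 0.696% of AGP1 and 0.664% of GNP1 occur in both of these genes, 1.11% of LYP1 occur elsewhere in the genome, in ALP1, and none of the other 7 ORFs had a stretch that occurs a second time. GNP1 overlaps YDR509W by 219 bases, and that ORF had 99 reads in the tra1-L3733A library and 127 in the TRA1 library. HIP1 overlaps YGR190C by 242 bases, with 258 and 326 reads. Reads from the overlap cannot be given to 1 of the ORFs, and the sources used here do not say how strand was handled. Forward reads made up 45.4 to 54.2% of the reads of each permease gene in either library.

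Of 12 genes of the SPS pathway, among them SSY1, PTR3, SSY5, STP1, STP2 and DAL81, 0 were called higher and 0 lower, against 2.80% and 5.46% of all tested ORFs, which for a list of this size is near the background. The list had a median log2 ratio of -0.10 beside -0.00 for all tested ORFs. The farthest from 1 were ASI1, whose product helps to keep unprocessed Stp1 and Stp2 out of the nucleus, at 0.725 (0.637 to 0.824), and the protease gene SSY5 at 0.747 (0.668 to 0.835). Of 10 regulators known to act on permease or nitrogen genes outside SPS, among them LEU3 and GCN4, 0 were called, with a median of -0.04. The corepressor gene CYC8 was at 0.810 (0.768 to 0.853), and the GATA repressor gene DAL80 at 2.48 (0.938 to 7.27) on 14 and 7 reads, an interval that holds 1.

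Of the 7 other genes of the yeast amino acid transporter family tested here, 2 were higher and 0 lower, against 2.80% and 5.46% of all tested ORFs, and both higher genes were known from earlier results of these data. The median log2 ratio of the list was 0.10. Relative to the median of all tested ORFs it was 0.10 on all reads, 0.06 on forward reads and -0.005 on reverse reads, so it did not stay above 0 in both read directions. The proline permease gene PUT4 was at 1.96 (1.83 to 2.10) on 2153 reads in the tra1-L3733A library and 1363 in the TRA1 library. The general amino acid permease gene GAP1 was at 1.65 (1.53 to 1.77) on 1646 and 1242 reads. Both are known to be repressed on good nitrogen sources. AGP2 was at 0.735 (0.635 to 0.850) and ALP1, a relative of CAN1 and LYP1, at 0.852 (0.619 to 1.17). Of 6 other amino acid and peptide transporters of the plasma membrane, PTR2 included, 0 were called, with a median of 0.15. The GABA permease gene UGA4 was at 1.49 (1.11 to 2.003) and the low-affinity methionine permease gene MUP3 at 0.785 (0.633 to 0.973). Of 14 genes of vacuolar amino acid transporters 0 were called, with a median of 0.05, AVT4 at 1.32 (1.21 to 1.44) and AVT2 at 1.29 (1.03 to 1.61).

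Genes for the secretion and turnover of permeases lay on both sides of 1. Over all tested ORFs 2.80% were called higher and 5.46% lower. For the lists here, of 8, 12 and 7 genes, the calls below are near that background. Of 8 genes of permease secretion 0 were called, with a median of 0.01, and the intervals of 3 lay above 1 and of 3 below it. Among them SHR3, whose product is the endoplasmic reticulum chaperone that amino acid permeases need to leave that compartment, was at 0.781 (0.732 to 0.833), and LST7, known for the sorting of Gap1, at 0.741 (0.596 to 0.918). Of 12 genes of permease turnover, which include the ubiquitin ligase gene RSP5 and its adaptors, 0 were called, with a median of -0.04, the deubiquitinase gene DOA4 at 0.799 (0.685 to 0.932) and ROD1, an adaptor of Rsp5, at 0.805 (0.691 to 0.937). Of 7 genes of the eisosome, a membrane domain in which Can1 is known to gather, 0 were higher and FHN1, a relative of the eisosome gene NCE102, was lower at 0.428 (0.186 to 0.904) on 10 and 29 reads. This call did not hold with a minimum of 100 reads or with either read direction alone. The eisosome median was 0.23, with PIL1, its core component, at 1.30 (1.27 to 1.34) and FMP45 at 1.44 (1.21 to 1.72).

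**Figure D5:**
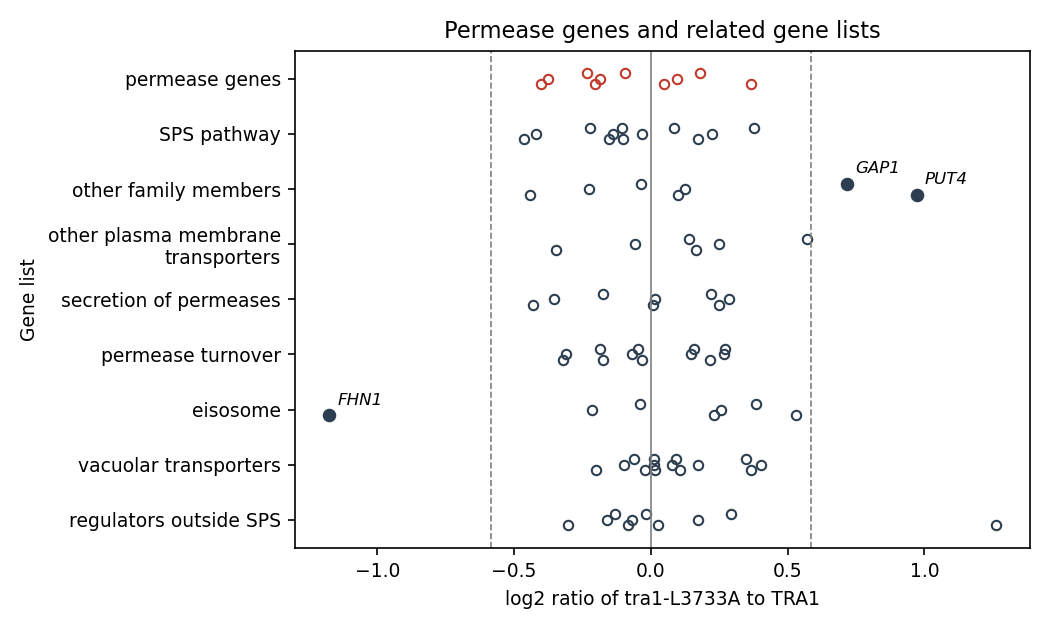
log2 ratio of tra1-L3733A to TRA1 for the 10 permease genes (red) and for genes of 8 related lists (dark blue), 1 row per list, 1 circle per gene. Dashed lines mark a ratio of 1.5 either way and filled circles are genes called by the size rule, which are PUT4 and GAP1 above and FHN1 below; DAL80, the open circle farthest right, rests on 14 and 7 reads.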

How the data were processed

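Messenger RNA was read in 1 library of the tra1-L3733A strain and 1 of the TRA1 strain. The deposited files hold raw read counts per ORF in 2 columns, taken here as forward and reverse read directions, and a deposited coverage (reads per base of ORF span), which equals reads over span within 1e-06 in all 13206 entries and was not used further. Novoalign, a read aligner, is the 1 tool listed in the submitters' processing notes; for its version, the build, the annotation and reads with several matches the sources used here give nothing. Of 5899 ORFs matched to R64 by identifier, 895 had the same start and end, as did 3 of the 10 permease genes, so R64 was used only with its own coordinates.

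Directions were summed and scaled by TMM factors of 0.967 for tra1-L3733A and 1.035 for TRA1 (edgeR 4.0.16, R 4.3.3), with totals of 9970836 and 11564964 counts. edgeR's test needs replicates and was not run. Ratios have 95% Clopper-Pearson counting intervals, and log2 ratios used 0.5 added reads. Quotients of 2 genes have exact conditional intervals. Protein identity comes from global alignment of translated R64 ORFs (Biopython 1.88, BLOSUM62). Members and lists were chosen with earlier results of these data known. The genes named are the 10 members, TRA1, and from each list every called gene and the 2 others with at least 20 reads farthest from 1, and likewise for the genes with a Leu3 element; GAP1 and PUT4 were known as higher beforehand. FHN1, PUN1, YPQ1 and YPQ2 were found through the R64 gene table. Alternatives were other scalings, read filters, fold thresholds, single read directions, a removed length trend, 5 added reads and other length or scaling for levels.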

Additional observations from a re-analysis of the deposited data

How the results depend on the processing

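Across scaling by total counts, lane reads or DESeq2 1.42.0 size factors, single read directions, a removed length trend and 5 added reads, 0 of 70 recomputed permease ratios passed the size rule, and 66 kept their direction. The exceptions were BAP3 at 1.02 on forward reads, TAT2 at 0.997 with total counts, and CAN1 at 0.965 with total counts and 0.971 with lane reads. Not all of the 70 are separate checks. The 5 added reads entered the ratio but not the size rule, so that setting could not change a call. DESeq2 size factors nearly repeated TMM, moving the median log2 ratio of all tested ORFs by 0.001. The summed ratio of 0.926 became 0.865 with total counts and 0.870 with lane reads. No permease gene was called with no read filter, at least 100 reads or a ratio of at least 2. These settings could not change a permease call and are not checks of it. Each permease gene had at least 2939 reads over both libraries, and none had passed the smaller ratio of 1.5.

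With a log2 ratio threshold of 0.32, 1 permease gene was called higher and 2 lower, against 670 and 902 of all tested ORFs. In that order the calls were 1 and 2 for SPS and 2 and 1 for other family genes. Other plasma membrane transporters had 1 and 1, and the eisosome 2 and 1. Secretion had 2 lower, turnover 1 lower and vacuolar genes 3 higher. At a ratio of at least 2 all tested ORFs gave 20 and 57 calls, and other family genes 0 higher. All tested ORFs gave 175 higher and 341 lower calls with TMM, 91 and 515 with total counts, and 98 higher with lane reads. Forward reads alone gave 1 higher call for SPS, other plasma membrane transporters and eisosome each, and 0 lower for eisosome. Reverse reads alone gave 1 lower call for other plasma membrane transporters and 0 for eisosome, and at least 100 reads gave 0 lower for eisosome. List medians relative to all tested ORFs changed with the read direction or the filter. Each change stayed within the counting interval of a typical gene of its list. For SPS the median was -0.10 on all reads and -0.06 on forward reads. For other family genes it was 0.10 on all reads and -0.005 on reverse reads. Other plasma membrane transporters went from 0.15 to 0.06 on reverse reads, and turnover from -0.04 to -0.007. Secretion went from 0.015 to 0.009 with no filter. Regulators went from -0.04 to -0.02 on forward reads and to -0.07 with at least 100 reads. The eisosome median of 0.23 was 0.28 on forward reads and 0.19 on reverse reads. The vacuolar median of 0.05 was 0.06 on reverse reads. The order of the 10 genes by level stayed the same in both libraries with total counts or a length less 1 read. No paired analysis was possible because each strain has 1 library. Each permease gene had at least 2939 reads over both libraries, and the spread between cultures was not measured.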

Other observations

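The Leu3 element was found in the 600 bases before the start of BAP2 and of 19 other genes in R64. Of these 19, 3 were called lower and 1 higher by the size rule, against 5.46% and 2.80% of all tested ORFs, with ratios of tra1-L3733A to TRA1 from 0.411 to 2.35 and a median of 0.977. The lower ones, named after their values were seen, were LEU1, an enzyme of leucine synthesis, at 0.411 (0.402 to 0.421), DRE2, a gene of cytosolic iron-sulfur cluster assembly, at 0.522 (0.480 to 0.566), and BAT1, the mitochondrial branched-chain aminotransferase, at 0.585 (0.568 to 0.603). The stress gene DDR2 was the 1 called higher, at 2.35 (2.20 to 2.51). Of the others, the farthest from 1 were ILV2, the acetolactate synthase of branched-chain amino acid synthesis, at 0.693 (0.672 to 0.714), and ATP5, a subunit of the mitochondrial ATP synthase, at 1.39 (1.31 to 1.47). The genes with these letters thus lay on both sides of 1, and a link between the element and the ratios was not tested.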
